A study of Caenorhabditis elegans with 2 samples.

Results

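Autosomal CEH-16 peaks at divergent promoters are peaks whose summit lies between the starts of a pair of protein-coding genes that are transcribed away from each other. They were chosen by position alone, from the list called on pooled replicates: the summit lies outside every protein-coding gene body and within 1000 bp upstream of a start on each strand (Ensembl release 115, WBcel235, the build of ce11). There were 699 such peaks, out of 24218 autosomal peaks and 30000 peaks in the whole pooled list. The peaks were set beside 3396 single-gene promoter peaks, whose summit is within 1000 bp upstream of a start on 1 strand only. For 1197 of these (35.2%) the summit still lies between 2 head-to-head starts, the second more than 1000 bp away. The data are chromatin immunoprecipitation and sequencing (ChIP-seq) of CEH-16 in whole L3 larvae of mixed sex of Caenorhabditis elegans strain OP82, which carries unc-119(tm4063) III and the transgene wgIs82 and makes CEH-16 with GFP and FLAG at its C terminus. Both biological replicates belong to this 1 group, so there is no contrast between conditions and no test between them. Whole animals were used, so peaks cannot be assigned to a tissue, and a protein made from a transgene need not be at its natural level. The replicate 1 list held 19150 peaks and the replicate 2 list 30000. The files give no read counts, so depth is unknown. Intervals below cover the counting of peaks only, and neighbouring peaks are not independent samples.

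CEH-16 is a homeodomain transcription factor, the engrailed protein of the worm, and is known for keeping the seam cells of the epidermis from fusing with their neighbours. Genes of the compact worm genome often lie head to head, and the stretch between their starts then serves as the promoter region of both. Many worm messages are trans-spliced to a leader, so an annotated start often marks the splice site and not the base where transcription begins.

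The sequences below are the 6 strongest of these peaks, printed because they hold the highest signal at such promoters. Each is the plus strand of ce11 from 50 bp before the summit to 50 bp after it. Capitals mark every match, on either strand, to the 10 words whose counts are given further on and to the word GGCGGAG, which was added after these windows had been read. The matches found in them are to GCGCGC, to CGCGCA, which can overlap it, and to GGCGGAG. None holds the homeodomain core TAAT. The windows have 51.5% to 60.4% G and C.
K01G5.10/tasp-1, III:10759199-10759299: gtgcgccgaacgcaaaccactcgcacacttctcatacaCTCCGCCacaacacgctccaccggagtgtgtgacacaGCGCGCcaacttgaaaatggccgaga
nhl-2/tag-340, III:4899921-4900021: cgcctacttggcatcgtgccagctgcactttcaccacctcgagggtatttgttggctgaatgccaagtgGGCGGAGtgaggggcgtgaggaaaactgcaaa
iff-2/F54C9.14, II:8561394-8561494: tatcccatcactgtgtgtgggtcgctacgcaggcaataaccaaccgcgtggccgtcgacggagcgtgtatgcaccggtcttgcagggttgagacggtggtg
ecps-1/atx-2, III:10461263-10461363: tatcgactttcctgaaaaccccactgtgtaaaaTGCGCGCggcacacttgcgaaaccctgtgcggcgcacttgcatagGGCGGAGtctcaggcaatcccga
rpl-15/K11H12.8, IV:654863-654963: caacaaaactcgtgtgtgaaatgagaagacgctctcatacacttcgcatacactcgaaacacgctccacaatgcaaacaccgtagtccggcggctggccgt
tim-1/Y75B8A.23, III:12250331-12250431: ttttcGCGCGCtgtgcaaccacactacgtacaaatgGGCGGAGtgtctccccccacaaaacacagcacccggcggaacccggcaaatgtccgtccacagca

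Divergent promoter peaks were frequent at the top of the pooled list. The thresholded list, which the authors kept by the irreproducible discovery rate, held 146 autosomal peaks, and 34 of them (23.3%) were at divergent promoters, in 1.48% of the autosomal sequence. Of the 699 divergent promoter peaks, 4.86% were in that list (exact 95% interval 3.39 to 6.73), against 1.35% of single-gene promoter peaks (0.993 to 1.80) and 0.603% of all autosomal peaks. The difference from single-gene promoters was 3.51 percentage points (95% score interval 2.08 to 5.40). The list ends at a pooled signal of 43.6, and it holds the peaks of highest pooled signal, so this share is a statement about signal. When the strongest 146 autosomal peaks were taken from each replicate on its own, 23 in replicate 1 and 28 in replicate 2 were at divergent promoters, against 42 at single-gene promoters in each. Of these, 19 in replicate 1 and 22 in replicate 2 lay within 200 bp of 1 of the 34.

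All 34 had a summit of each replicate within 200 bp. The list was kept by agreement between replicates and holds the highest pooled signal, so this support is close to fixed by the selection. The same holds in part for the ranks given below. Their signal ran from 43.9 to 84.8 in the pooled list (median 55.3), from 10.4 to 55.0 in replicate 1 (median 22.7) and from 11.3 to 49.98 in replicate 2 (median 31.5). The signal is the authors' value for each peak, its scale is not stated, and it was set in each list separately, so levels of different lists are given side by side only. A summit in the top 1000 of its own list was present for 29 of the 34 in replicate 1, for 31 in replicate 2 and for 26 in both.

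**Figure D1:**
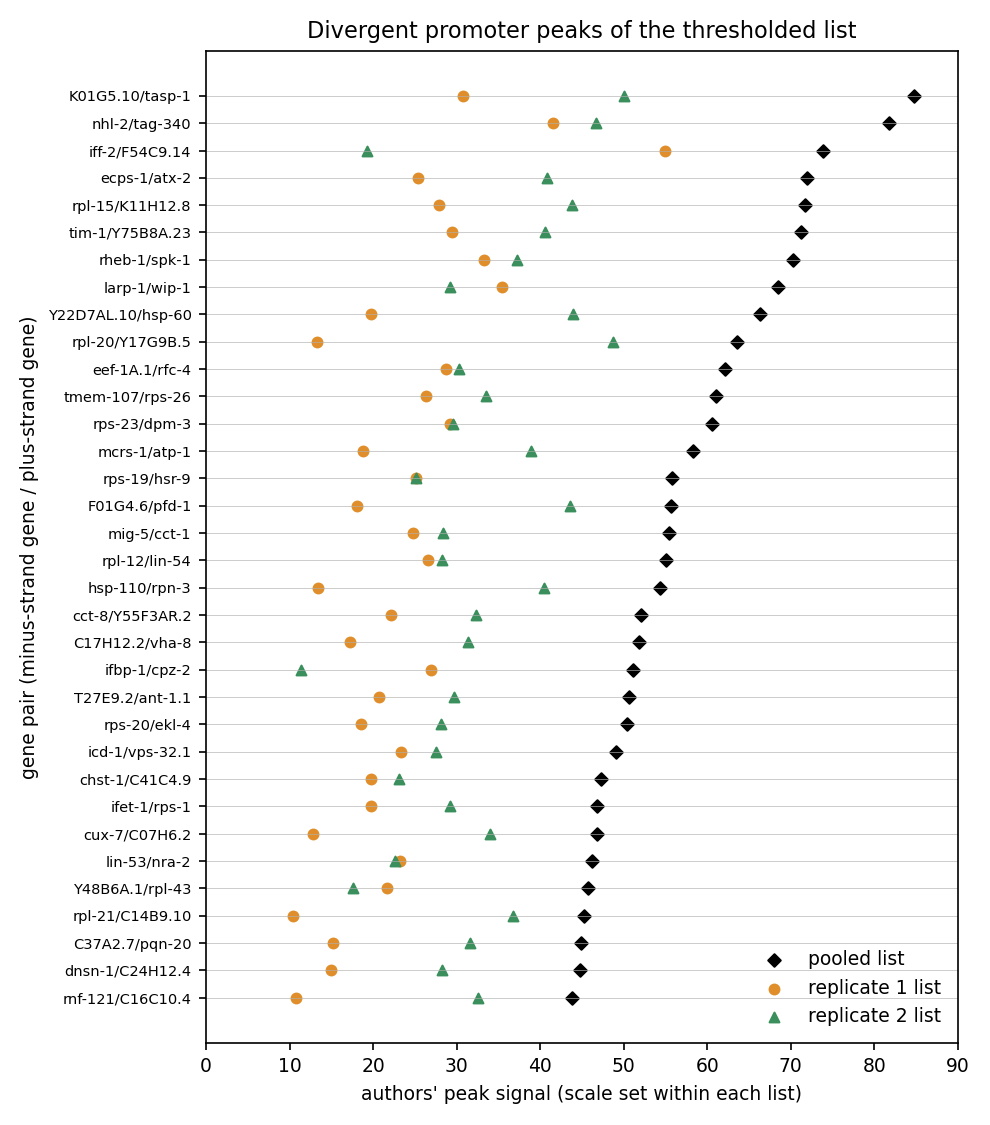
Signal of the 34 divergent promoter peaks of the thresholded list in the pooled list (diamonds), the replicate 1 list (circles) and the replicate 2 list (triangles), on the authors' scale within each list, 1 gene pair per line. Circles and triangles are on separate scales; the lowest triangle is that of ifbp-1/cpz-2, at 11.3, and the highest circle that of iff-2/F54C9.14, at 55.0.

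The strongest divergent promoter peak lay between K01G5.10 and tasp-1, which encodes a relative of the threonine protease taspase. It had a signal of 84.8 in the pooled list, 30.7 in replicate 1 and 49.98 in replicate 2, and its summit was 58 bp from the tasp-1 start and 727 bp from the K01G5.10 start. The next, at 81.7 pooled (41.6 in replicate 1 and 46.7 in replicate 2), lay between nhl-2, a cofactor of microRNA silencing, and tag-340. Its starts are 1423 bp apart, the widest gap of the 34. The peak between ecps-1 and atx-2, the worm ataxin-2, had 71.9 pooled, 25.4 in replicate 1 and 40.8 in replicate 2. These 3 peaks were among the top 113 of each replicate list.

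The pair tim-1/Y75B8A.23, where tim-1 encodes the worm Timeless protein, had 71.2 pooled, 29.4 in replicate 1 and 40.6 in replicate 2. The pair rheb-1/spk-1 joins a GTPase of the TOR pathway to an SR protein kinase and had 70.3 pooled, 33.2 in replicate 1 and 37.2 in replicate 2. Between larp-1, an RNA-binding La-related protein, and wip-1, a regulator of actin assembly, the signal was 68.5 pooled, 35.4 in replicate 1 and 29.2 in replicate 2. The pair mig-5/cct-1 had 55.4 pooled, 24.7 in replicate 1 and 28.4 in replicate 2. Its summit was 177 bp from the start of mig-5, a Dishevelled protein of the Wnt pathway, and 243 bp from that of cct-1, a chaperonin subunit. A peak at such a pair cannot be assigned to either gene by its position.

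Ribosomal protein genes, as listed by symbol, bordered 10 of the 34, and they are described with the other gene lists. Genes of the translation factor list bordered 3: iff-2 encodes an eIF5A protein, eef-1A.1 the elongation factor that brings aminoacyl-tRNA to the ribosome, and ifet-1 a translational repressor that binds eIF4E. The eef-1A.1/rfc-4 peak had 62.1 pooled, 28.7 in replicate 1 and 30.3 in replicate 2, and rfc-4 encodes a subunit of the clamp loader of DNA replication. The next 4 pairs hold a gene for a protein-folding factor, as does mig-5/cct-1 above, and were set together after their values were seen. No list covered such genes, so they were not counted in full and no share over all of them can be set beside these pairs. The mitochondrial chaperonin gene hsp-60 (with Y22D7AL.10) had 66.3 pooled, 19.7 in replicate 1 and 43.9 in replicate 2. The prefoldin gene pfd-1 (with F01G4.6) had 55.6 pooled, 18.05 in replicate 1 and 43.6 in replicate 2. Between hsp-110 and rpn-3, a regulatory subunit of the proteasome, the values were 54.4 pooled, 13.4 in replicate 1 and 40.4 in replicate 2. The chaperonin gene cct-8 (with Y55F3AR.2) had 52.1 pooled, 22.1 in replicate 1 and 32.3 in replicate 2.

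The peak at mcrs-1/atp-1 had 58.3 pooled, 18.7 in replicate 1 and 38.9 in replicate 2, and its summit was 9 bp from the start of atp-1, a subunit of the ATP synthase. The C17H12.2/vha-8 pair, with a subunit of the vacuolar proton pump, had 51.9 pooled, 17.2 in replicate 1 and 31.4 in replicate 2. The T27E9.2/ant-1.1 pair, with the adenine nucleotide translocator, had 50.6 pooled, 20.6 in replicate 1 and 29.7 in replicate 2. The icd-1/vps-32.1 pair, with a subunit of the nascent polypeptide-associated complex and an ESCRT protein, had 49.1 pooled, 23.3 in replicate 1 and 27.5 in replicate 2. All 4 lay within the top 423 of each replicate list.

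A few peaks rested mainly on 1 replicate. The ifbp-1/cpz-2 peak, 51.1 pooled, had 26.9 in replicate 1 but 11.3 in replicate 2, close to that list's autosomal median of 10.8 and at rank 12998 of it. The iff-2/F54C9.14 peak, 73.9 pooled, had 55.0 in replicate 1, the highest of any divergent promoter peak there, and 19.3 in replicate 2, at rank 1346. In the other direction, rpl-21/C14B9.10 had 45.2 pooled, 10.4 in replicate 1 at rank 3659, and 36.7 in replicate 2. Also beyond rank 1000 of replicate 1 were rnf-121/C16C10.4 (3238), cux-7/C07H6.2 (1536), rpl-20/Y17G9B.5 (1324) and hsp-110/rpn-3 (1312). Beyond rank 1000 of replicate 2 was also Y48B6A.1/rpl-43 (2182). A tRNA, snRNA, snoRNA, rRNA or miRNA gene lay within 200 bp of the summit for 4 of the 34: tim-1/Y75B8A.23, eef-1A.1/rfc-4, tmem-107/rps-26 and chst-1/C41C4.9. Its part in the signal there was not tested.

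Over all 699, signal was higher than at single-gene promoters in each list, and mostly so among the strong peaks. The pooled median was 17.2 (quartiles 13.7 and 23.6) at divergent promoters, against 15.5 (13.3 and 19.6) at single-gene promoters and 15.1 (13.1 and 18.4) over all autosomal peaks. The ratio of divergent to single-gene medians was 1.11 in the pooled list. In each replicate list, with its own peaks classed by the same rule, the ratio was 1.10 in replicate 1 and 1.07 in replicate 2 (mean 1.08 ± 0.02, SD, n = 2). At the upper quartile it was 1.20 in the pooled list (1.17 in replicate 1 and 1.19 in replicate 2), and at the lower quartile 1.03 (1.06 in replicate 1 and 1.05 in replicate 2). The interquartile ranges of both classes overlap widely in all 3 lists. No test of this ratio over the 2 replicates was run, and both values were above 1.

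**Figure D2:**
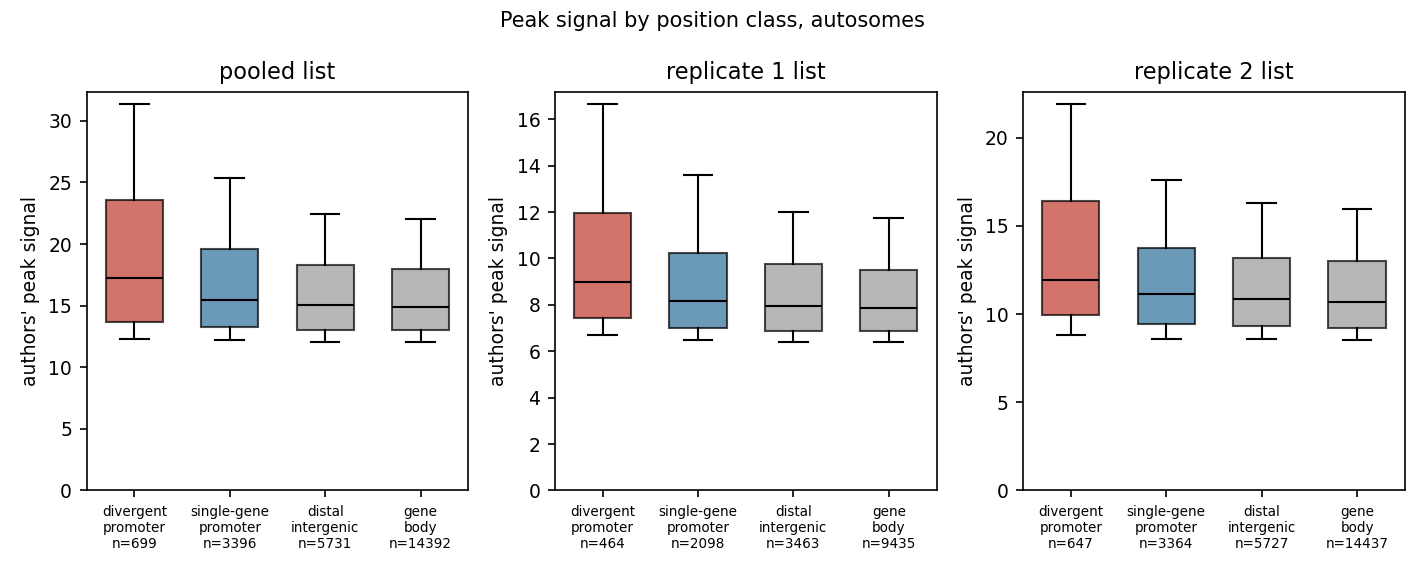
Peak signal on the authors' scale by position class on the autosomes, in the pooled, replicate 1 and replicate 2 lists; boxes show the median and quartiles, whiskers the 10th and 90th percentiles, and n the peaks. Divergent promoter peaks have the highest median and upper quartile in each list, with boxes that overlap those of the other classes.

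The rule's distance limit of 1000 bp did not mark a step in signal. The 46 peaks whose farther start was 901 to 1000 bp away had a median pooled signal of 15.5 (quartiles 12.9 and 21.4), and 0 of them were in the thresholded list. The 68 single-gene promoter peaks whose second start was 1001 to 1100 bp away had a median of 16.2 (quartiles 13.5 and 20.2), with 1 in the thresholded list.

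Replicate support was more frequent than at single-gene promoters. A summit of both replicates lay within 200 bp of 230 of the 699 divergent promoter peaks (32.9%, exact 95% interval 29.4 to 36.5), against 798 of 3396 single-gene promoter peaks (23.5%, 22.1 to 24.96). The difference was 9.41 percentage points (95% score interval 5.72 to 13.2), and the share over all autosomal peaks was 19.5%. The difference was larger for the replicate 1 list, which is the shorter one. A replicate 1 summit was near 49.2% of divergent and 40.4% of single-gene promoter peaks (difference 8.81 points, interval 4.76 to 12.9). A replicate 2 summit was near 73.1% of divergent and 69.8% of single-gene promoter peaks (difference 3.29 points, interval -0.444 to 6.81), a range that includes 0. Neither replicate had a summit near 74 of the 699 divergent promoter peaks (10.6%), against 13.3% of single-gene promoter peaks. By distance to the nearer start, the difference in support by both replicates was 11.2 points at 1 to 100 bp (interval 4.02 to 18.7). At 101 to 200 bp it was 10.9 points (2.95 to 19.2). Farther out it was 5.51 at 201 to 300 bp, 4.97 at 301 to 500 and 1.11 at 501 to 1000, with intervals including 0.

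Pooled signal and replicate support moved together, so the shares were also taken within quartiles of the pooled signal over all autosomal peaks. The top quartile, from a signal of 18.4, held 305 divergent promoter peaks (43.6% of them), against 30.9% of single-gene promoter peaks. Within it, both replicates had a summit near 63.9% of divergent and 56.3% of single-gene promoter peaks (difference 7.595 points, interval 1.32 to 13.6). In the quartile below, the shares were 14.9% at divergent and 18.4% at single-gene promoters (difference -3.48 points, interval -9.19 to 3.78). In the second quartile they were 8.20% at divergent and 4.90% at single-gene promoters, and in the lowest 3.05% at divergent and 3.02% at single-gene promoters, with intervals of the difference that include 0. The interval of the difference excluded 0 only in the top quartile. There the median pooled signal was still higher at divergent (24.5) than at single-gene promoters (22.3), so signal was not matched within it. The pooled signal, which is made from the same replicates, is not independent of their support.

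**Figure D3:**
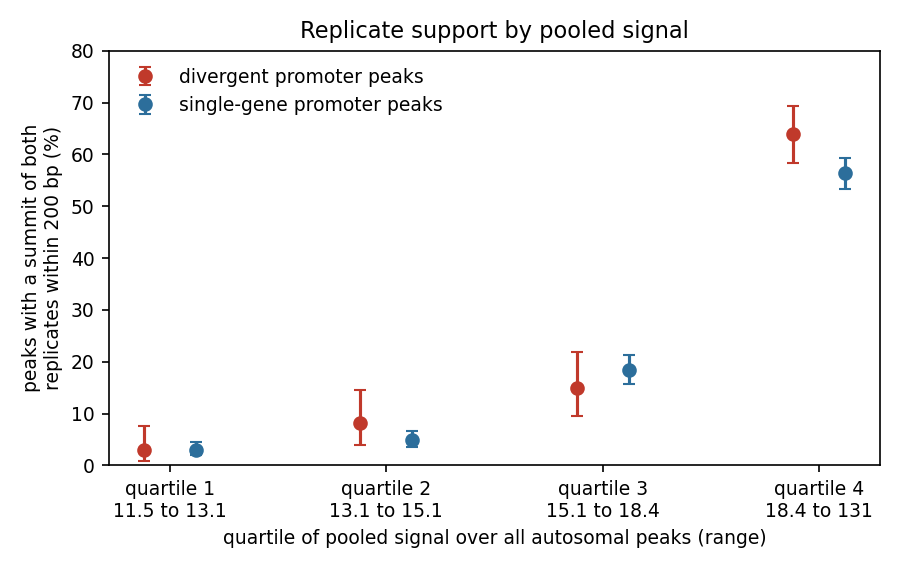
Share of peaks with a summit of both replicates within 200 bp (y axis, percent, with exact 95% intervals over peaks) in each quartile of pooled signal (x axis), for divergent and single-gene promoter peaks. The shares rise from about 3% in the lowest quartile to 63.9% at divergent and 56.3% at single-gene promoters in the top one.

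Among the 230 divergent promoter peaks near a summit of both replicates, the replicate signals had a Spearman's rho of 0.38 and, on the log2 scale, a Pearson's r of 0.47. For the 798 single-gene promoter peaks they were 0.31 and 0.43, and for all 4711 autosomal peaks with both they were 0.22 and 0.36. These describe peaks of the same pair of libraries and were not tested. The strongest divergent promoter peak that lacked a replicate lay between ccf-1, a deadenylase, and trap-4, with 39.1 pooled and 29.6 in replicate 2 and no replicate 1 summit nearby. The next, between E04F6.6 and pcrg-1, had 33.3 pooled and 19.8 in replicate 1 and no replicate 2 summit nearby.

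Per base of sequence that meets the rule, divergent promoters held more peaks than single-gene promoters. There were 574 pooled peaks per Mb in 1.22 Mb of divergent promoter sequence (exact Poisson 95% interval 532 to 618), against 379 per Mb in 8.95 Mb of single-gene promoter sequence (367 to 392.2) and 293 per Mb over the autosomes. The ratio of divergent to single-gene density was 1.51 in the pooled list, 1.62 in replicate 1 and 1.41 in replicate 2. Per region the classes were close. Of 2430 intergenic regions with divergent promoter sequence, 659 (27.1%) held at least 1 such peak, against 2890 of 10834 regions (26.7%) with single-gene promoter sequence. In 619 of the 659 the peak was alone, and 40 held 2. Both starts bordered the intergenic region of the summit in 695 of the 699, and in the other 4 another gene lay between.

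The density at divergent promoters was higher within 300 bp of the nearer start than over 301 to 1000 bp, and highest in short gaps. In bins of 100 bp it was 631, 649 and 735 per Mb out to 300 bp, so it was not highest next to the start. All sequence of a short gap is near a start, so distance and gap were not separated. Within 300 bp of the nearer start there were 664 peaks per Mb at divergent promoters (608 to 723), against 433 at single-gene promoters (411 to 456). In the bin of 501 to 600 bp there were 548 at divergent (391.5 to 746) and 308 at single-gene promoters (271 to 348). Over the whole stretch from 301 to 1000 bp there were 404 per Mb at divergent (346 to 469) and 347 per Mb at single-gene promoters (332 to 363), intervals that overlap. The nearer start was within 300 bp for 528 of the 699 peaks (75.5%), where 65.3% of the divergent promoter sequence lies, and for 27 of the 34 in the thresholded list. In gaps of up to 300 bp between the starts there were 986 peaks per Mb (92 peaks). The figure was 870 for gaps of 301 to 500 bp, 475 for 751 to 1000 bp and 258 for 1501 to 2000 bp (18 peaks). The median gap was 671 bp over the 699 peaks and 583 bp over the 34, against 820 bp over the eligible bases.

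**Figure D4:**
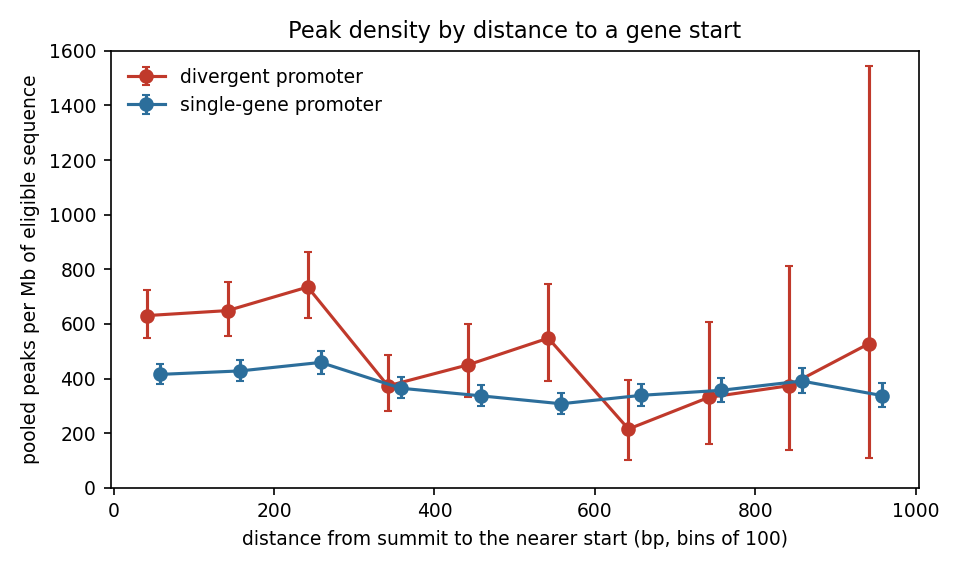
Pooled peaks per Mb of eligible sequence (y axis) in bins of 100 bp of distance from the summit to the nearer start (x axis), with exact Poisson 95% intervals, for divergent and single-gene promoters. The divergent points lie above the single-gene points up to 300 bp and from 501 to 600 bp with intervals that do not overlap, and beyond 600 bp they rest on 10 peaks or fewer each.

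The median pooled signal was 17.7 for divergent promoter peaks within 300 bp of the nearer start, against 15.9 for single-gene promoter peaks, and beyond it 16.1 for divergent against 15.2 for single-gene promoter peaks. Summits at 40% to 50% of the gap from the nearer start made up 28.0%, where 27.1% of the bases lie, and those at 30% to 40% made up 26.2%, where 22.7% lie. From 20% to 30% the peaks made up 18.3% and the bases 19.4%, from 10% to 20% 14.3% and 16.6%, and within 10% of a start 13.2% and 14.2%. Of the 34 thresholded peaks, 12 lay at 40% to 50% and 11 at 30% to 40%.

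The 5 autosomes differed more in the top of the list than in the median. Chromosome III held 149 divergent promoter peaks, 823 per Mb, and 14 of them (9.40%) were in the thresholded list, against 2.28% of its single-gene promoter peaks. Chromosome V held the most, 162, but at 438 per Mb, and 1 of these (0.617%) was in the thresholded list, close to the 0.639% of its single-gene promoter peaks. The share was 4.08% at divergent against 1.90% at single-gene promoters on I, 5.26% against 1.14% on II, and 5.51% against 1.38% on IV. The median pooled signal lay between 16.4 on V and 18.1 on II at divergent promoters, against 14.8 on V to 16.4 on III at single-gene promoters, and it was higher at divergent promoters on each of the 5.

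GC content was higher among the thresholded peaks than among all peaks of both promoter classes. GC content, taken from 100 bp before to 100 bp after each summit, averaged 35.7% ± 6.53 at divergent promoters (SD over 699 peaks), against 34.3% ± 6.29 at single-gene promoters (SD over 3396 peaks) and 34.8% ± 6.28 over all autosomal peaks. In the thresholded list it was 44.4% ± 5.62 for the 34 divergent and 42.5% ± 5.95 for the 46 single-gene promoter peaks. Sequence that meets the divergent promoter rule had 34.1% in windows of the same width taken every 200 eligible bases. Within the upper tertile of GC over all autosomal peaks the median pooled signal was 20.5 at divergent and 17.03 at single-gene promoters, a ratio of 1.21. In the middle tertile the ratio was 1.07 and in the lower tertile 1.05. Both replicates had a summit near 45.7% of divergent and 35.1% of single-gene promoter peaks in the upper tertile (difference 10.7 points, interval 3.84 to 17.6). In the lower tertile the shares were 21.4% at divergent and 17.6% at single-gene promoters, with an interval that includes 0 (-1.64 to 10.1). The part of GC in the signal was not tested.

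The 10 words were counted within 50 bp of the summit on either strand. The engrailed-type core TAATTA was at 5.58% of divergent promoter summits, against 5.62% of single-gene promoter summits, 5.11% of all autosomal summits and 5.74% of eligible windows. The related TAATTG was at 6.29%, against 8.92% of single-gene and 9.03% of all autosomal summits. The shorter TAAT was at 63.2%, against 67.4% of single-gene and 66.1% of all autosomal summits. At the 34 thresholded peaks TAATTA was at 0, which allows a share of up to 10.3% (exact 95% upper bound), and TAAT was at 10 (29.4%). The 46 thresholded single-gene promoter peaks were alike, with TAATTA at 0 and TAAT at 18 (39.1%). These words hold only A, T and at most 1 G or C, and the GC content of the same summits is given above.

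GCGCGC and CGCGCA, which are made wholly or mostly of G and C, went the other way. The part of GC content in these counts was not tested. GCGCGC was at 5.87% of divergent promoter summits (exact 95% interval 4.24 to 7.87), against 1.97% of single-gene and 1.04% of all autosomal summits, 1.90% of eligible windows, and 0.572% and 0.858% of windows 500 bp to the left and right. CGCGCA, which overlaps it, was also at 5.87%, against 2.94% of single-gene and 1.83% of all autosomal summits. In the thresholded list GCGCGC was at 8 of 34 divergent (23.5%) and 3 of 46 single-gene promoter peaks (6.52%), but CGCGCA was at 5 divergent (14.7%) and 7 single-gene promoter peaks (15.2%). Both words were searched because an earlier analysis of these data had brought them up, so their counts are not independent of it. GAGAGA was at 9.44% against 7.98% of single-gene summits, TATAAA at 12.4% against 13.5%, GATAA at 21.7% against 23.9%, CACGTG at 1.72% against 1.86% and AATATT at 10.4% against 13.3%. The word GGCGGAG was at 4 of the 6 peaks printed above, where it had been noticed. It was at 2 of the other 28 thresholded divergent promoter peaks, at 2.86% of all 699, at 1.68% of single-gene promoter summits and at 1.19% of all autosomal summits.

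Divergent promoters are not spread evenly over gene families. Of 17242 autosomal protein-coding genes, 4770 (27.7%) had a start next to divergent promoter sequence, and 1318 of these had a divergent promoter peak, which is 27.6%. The other promoter class gave 23.9%, or 3089 of 12923 genes with single-gene promoter sequence. A gene can count in both. Membership in the lists below went by symbol, so a member known only by a sequence name is not counted.

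Ribosomal protein genes were the list with the highest share. Of 79 autosomal members, 49 had divergent promoter sequence and 35 of these (71.4%) had a divergent promoter peak, with a median pooled signal of 28.6 for the strongest peak of each gene, against 17.4 over all genes with such a peak. The share was about as high at single-gene promoters, 22 of 29 (75.9%), so it was not limited to divergent promoters as defined here. The 35 peaks at these starts had a median signal of 26.97, and 24 of them (68.6%) had both replicates nearby. At single-gene promoters of the list there were 24 peaks, with a median of 23.4, and 14 of them (58.3%) had both. In the thresholded list were 10 of the 35 divergent (28.6%) and 5 of the 24 single-gene promoter peaks (20.8%).

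The 10 were those of rpl-15, rpl-20, rps-26, rps-23, rps-19, rpl-12, rps-20, rps-1, rpl-43 and rpl-21. The rpl-15/K11H12.8 peak had 71.7 pooled, 27.9 in replicate 1 and 43.9 in replicate 2. The rpl-20/Y17G9B.5 peak had 63.5 pooled, 13.3 in replicate 1 and 48.8 in replicate 2. The rps-23/dpm-3 peak, whose partner encodes a subunit of the enzyme that makes dolichol-phosphate mannose, had 60.6 pooled, 29.2 in replicate 1 and 29.5 in replicate 2. The rps-19/hsr-9 peak, whose partner is the worm 53BP1-like protein, had 55.8 pooled, 25.1 in replicate 1 and 25.1 in replicate 2. The rpl-12/lin-54 peak, whose partner is a DNA-binding subunit of the DREAM complex, had 55.1 pooled, 26.6 in replicate 1 and 28.2 in replicate 2. In only 3 of the 10 was the summit nearer to the ribosomal protein start than to the partner's, and it was 33 to 740 bp from it (median 301 bp). Without the listed ribosomal protein genes in either class, 24 of 664 divergent promoter peaks (3.61%) were in the thresholded list, against 41 of 3372 single-gene promoter peaks (1.22%).

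The lists of respiratory chain, splicing, DNA replication and cell cycle, proteasome, translation factor and synthetase genes were above the 27.6% of all genes. So were the homeobox (3 of 8, 37.5%), cuticle collagen (13 of 39, 33.3%), neuropeptide (4 of 13, 30.8%) and Wnt (2 of 5, 40.0%) lists, by small counts. The respiratory chain and ATP synthase list had peaks at 11 of 20 genes with divergent promoter sequence. The strongest after atp-1 was that of atp-5, at 33.8 pooled, 10.2 in replicate 1 and 24.9 in replicate 2. Splicing factors had 13 of 25, led by prp-19 at 39.1 pooled, 6.62 in replicate 1 and 32.6 in replicate 2. DNA replication and cell cycle genes had 13 of 29, led by rfc-4, and proteasome subunits 9 of 22, led by rpn-3. Translation factors had 8 of 22, of which 3 were in the thresholded list, and aminoacyl-tRNA synthetases 5 of 14, led by mars-1 at 27.2. These lists had 1, 0, 1, 1, 3 and 0 genes in the thresholded list, in the order given, where 68 of all 4770 genes with divergent promoter sequence (1.43%) had one. The median signal of the strongest peak of each gene was 22.6 for the respiratory chain, 21.96 for translation factors and 20.6 for the synthetases, against 17.4 over all genes. It was 16.6 for splicing factors, 16.2 for DNA replication and cell cycle genes and 16.7 for proteasome subunits, below that of all genes. The counts are small, and at single-gene promoters the shares were 6 of 18, 3 of 18, 10 of 34, 5 of 11, 5 of 16 and 6 of 19.

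**Figure D5:**
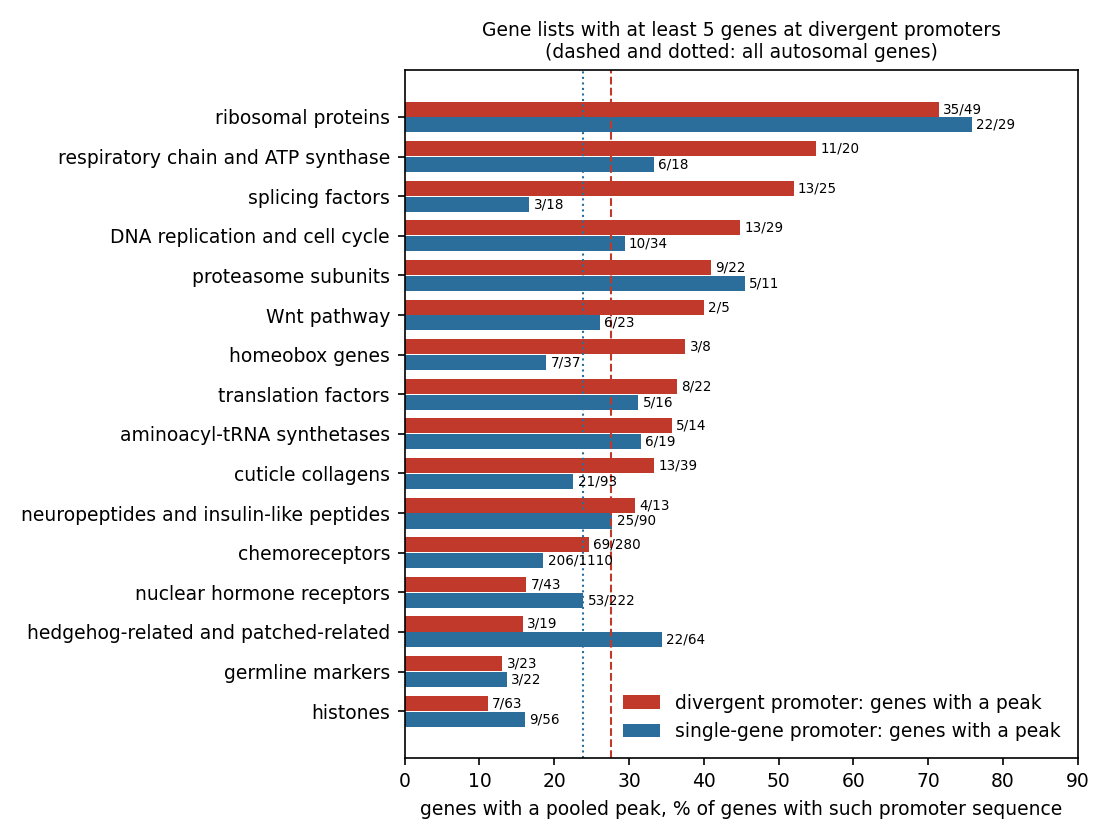
Share of genes with a pooled peak in each list that has at least 5 genes with divergent promoter sequence (x axis, percent), for genes with divergent promoter sequence (upper bar) and with single-gene promoter sequence (lower bar), with counts beside the bars; the dashed and dotted lines give 27.6% and 23.9% for all autosomal genes. Of the lists drawn, ribosomal protein genes stand highest for both bars, and histones lowest for the upper bar.

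Of the lists of genes with restricted expression, the Wnt list held 1 gene among the 34 pairs, mig-5, and the other such lists held 0. At the 1.43% of all genes, most of these lists are too short for a count of 0 to be set apart from it. Chemoreceptors had peaks at 69 of 280 genes with divergent promoter sequence (24.6%), with a median signal of 14.4. The strongest of these was at sri-5, 39.9 pooled with 9.28 in replicate 1 and 30.95 in replicate 2, and its partner rsr-1 encodes a splicing-related protein. Nuclear hormone receptors had 7 of 43, led by nhr-47 at 39.04 pooled, 19.4 in replicate 1 and 18.1 in replicate 2, with its partner dnj-19, a DnaJ protein. Cuticle collagens had 13 of 39, led by col-71 at 27.8. The head-to-head collagen pair col-117 and col-3 shared a peak of 23.7 pooled, with 18.99 in replicate 2 and no replicate 1 summit nearby. Hedgehog-related genes had 3 of 19, neuropeptides and insulin-like peptides 4 of 13, and homeobox genes 3 of 8.

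Histone genes were at 7 of 63, or 11.1%, the lowest of the lists with at least 5 such genes, although 92.6% of autosomal histone genes have divergent promoter sequence. The strongest was shared by his-31 and his-32, at 28.3 pooled with 22.9 in replicate 2 and no replicate 1 summit nearby. Histone genes occur in near-identical copies, and how reads that fit several copies were placed is not given in the sources used here, so this low count is uncertain. Germline markers had 3 of 23, the strongest being nos-3 at 24.1.

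Few genes linked to the known role of CEH-16 had divergent promoter sequence, which 27.7% of all genes had. Of 22 autosomal seam and epidermal regulators, 2 (9.09%) had it and 1, hlh-26, had a divergent promoter peak, at 13.2 with no summit of either replicate nearby. At single-gene promoters of this list, 7 of 19 genes (36.8%) had a peak, 1 of them in the thresholded list, against 23.9% of all genes. Of the Wnt list, 5 of 26 genes (19.2%) had divergent promoter sequence, and mig-5 and apr-1 had peaks there, against 6 of 23 genes at single-gene promoters. The apr-1 peak, 85 bp from the start of this APC-related gene and 612 bp from K04G2.7, had 15.1 pooled and no summit of either replicate nearby. The genes eff-1, egl-18, elt-6, ceh-16 and unc-119 have no divergent promoter sequence by this rule. None of the 16 autosomal apical junction genes has any, and 6 of the 16 (37.5%) had a single-gene promoter peak. The marker lists of intestine (0 of 4), pan-neuronal genes (0 of 1) and body-wall muscle (1 of 2, pat-10 at 11.8) had too few genes at such promoters to describe.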

How the data were processed

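Peak lists were used as the authors deposited them: 1 per replicate, 1 from pooled replicates and 1 thresholded list, on ce11. Lists on ce10 were not used here. Per the labels, chromatin was sonicated and a control exists, which is not analysed here. The sources used here name no aligner and no peak caller. The signal per peak is the authors' deposited value, of unstated scale. The pooled and replicate 2 lists stop at exactly 30000 peaks.

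Summits were classed by the starts and bodies of protein-coding genes, and eligible bases by the same rule. The nearest start on each strand names a pair. Replicate support means a summit within 200 bp. Shares have exact Clopper-Pearson 95% intervals, differences of shares Newcombe score intervals and densities exact Poisson intervals. No test was run: the samples are 2 replicates of 1 group, and values of each replicate list are given instead. GC was taken within 100 bp and words within 50 bp of the summit, from the RefSeq sequence of WBcel235. Genes were named by a rule: up to 30 of the strongest thresholded members, list members, and 6 genes tied to CEH-16 or the strain. List leaders outside the thresholded list and the strongest peaks lacking a replicate were chosen after their values were seen. The members and the 21 gene lists were chosen with earlier results of these data known. The class, distance and word steps were tested on simulated data. Python 3.11.15, numpy 2.4.6, pandas 2.3.3, scipy 1.17.1 and matplotlib 3.10.9 were used.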

Additional observations from a re-analysis of the deposited data

How the results depend on the processing

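Of 72 alternative values, 51 stayed within their range and 21 moved. The range was 1.5 times for counts, the 95% interval for shares, and 1 SD between replicates for ratios and GC. A direction that could change exists only for the difference in support (12 values), the signal ratio (10) and the density ratio (8), and 0 of these changed it. Depth is unknown and could not be examined. Starts bounding the region, leaving out ribosomal protein genes and the strongest peaks of 1 replicate were chosen after seeing the data. With a limit of 500 bp there were 368 divergent promoter peaks, 37.8% with both replicates, a signal ratio of 1.15 and a density ratio of 1.96. With 2000 bp there were 1239 peaks, 29.1%, 1.07 and 1.30. Both replicates were near 15.2% with summits within 50 bp (4.77 points above single-gene promoters), 41.9% within 500 bp, 38.8% by interval overlap and 12.2% with the 5000 strongest of each replicate. In the stronger 50% of the pooled list there were 446 peaks, 48.4% with both, and a density ratio of 1.80. With the strongest peak of each region the density ratio was 1.68. These settings change by construction which peaks are counted. Without the listed ribosomal protein genes the signal ratio was 1.09. With 1 replicate left out, the number of peaks was 464 to 647, the signal ratio 1.07 to 1.10, the density ratio 1.41 to 1.62, the GC content 35.4% to 37.0%, and the divergent share of the top 146 was 23 to 28 peaks. The cause of the shift between replicates was not tested. The share in the thresholded list ranged from 3.55% to 6.25% under its 7 alternatives.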
